A study of Mus musculus with 4 samples.

Results

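The plasminogen activator genes and those of transforming growth factor beta (TGF-beta) were followed in brown adipose tissue, 8 genes of 52022 genes with a transcript in the files and 8 of the 15643 genes tested. They were picked by symbol, with earlier results of these libraries known: Thbs1, Plat, Plau, Plaur, Tgfb1, Tgfb2, Tgfb3 and Tgfbr1. All 8 passed the filter on low counts. Messenger RNA had been sequenced from male mice that had free access to food and ate a 60% fat diet for 12 weeks. Per the labels, 2 libraries (KO 1 and KO 2) came from mice that lack ATF4, a stress-responsive transcription factor, in thermogenic adipocytes, and 2 (WT 1 and WT 2) from wild-type mice. The sources used here do not say how ATF4 was deleted, nor the strain or the age. As labelled, the deletion does not target the macrophages, vessel cells and fibroblasts of the tissue, whose RNA is in the same libraries. WT 2 and KO 1 have names that begin with S1, and those of WT 1 and KO 2 begin with S2, a prefix whose meaning the labels do not state. It was treated as a possible batch, so each genotype difference is given within both prefixes.

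The total estimated count per library lay between 25985367 and 34813870. Atf4, the targeted gene, was measured at 107 counts per 1000000 (CPM) in WT 2, while WT 1 had 29.2, KO 1 had 24.97 and KO 2 had 24.5. The library labelled WT 1 thus stood close to both KO libraries. Wherever a difference below rests on WT 1, that limit of the label applies. The 6 skeletal muscle markers summed to 2220 and 2143 CPM in the KO libraries, beside 0.574 and 1.01 in the WT libraries, and the part of muscle in the values below was not tested. The 7 brown adipocyte markers summed to 13230 to 16380 CPM over the 4 libraries. That sum hides low markers that varied more, such as Elovl3, at 10.6 CPM in WT 1 and 81.5 in KO 1. The 4 mesothelial markers summed to 0.701 to 1.60 CPM, although Upk3b among them was at 0 counts in every library.

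Plasminogen is cut to plasmin, a protease of fibrin and matrix, by 2 activators, the tissue type (Plat) and the urokinase type (Plau). Urokinase is held at the cell surface by its receptor (Plaur), which focuses plasmin formation there. The 3 TGF-beta ligands (Tgfb1, Tgfb2, Tgfb3) are secreted in a latent form, and thrombospondin-1 (Thbs1), a matrix glycoprotein, is one of the proteins known to release them. Active ligand binds a receptor pair in which Tgfbr1 is the signalling kinase that phosphorylates SMAD proteins, which then act on genes in the nucleus. In fat tissue the pathway is known for matrix deposition and for restraint of thermogenic differentiation.

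The table of RefSeq promoters (build GRCm38.p6) held 4 of the 8 genes: Plaur, Tgfb1, Tgfb2 and Tgfbr1. Their 250 bases before the start are shown because 3 of them (Tgfb1, Tgfb2, Tgfbr1) are the ligands and the receptor whose levels split by prefix, and because Plaur is the one member of the urokinase system in the table. Capitals mark matches, on either strand, to AP-1 (TGANTCA), the cAMP response element (TGACGTCA), the CHOP-ATF4 composite element (TGATGNAA), a SMAD element (CAGACA), the GC box (GGGCGG), the TATA box (TATAAA) and the CCAAT box (CCAAT). Of Tgfbr1, which has 2 starts in the table, the upstream one is shown.
Plaur (chr7:24462233-24462482, plus strand): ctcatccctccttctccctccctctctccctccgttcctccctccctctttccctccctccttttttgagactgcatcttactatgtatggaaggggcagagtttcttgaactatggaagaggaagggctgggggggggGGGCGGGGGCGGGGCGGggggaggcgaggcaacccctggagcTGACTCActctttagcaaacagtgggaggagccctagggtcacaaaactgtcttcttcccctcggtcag
Tgfb1 (chr7:25686752-25687001, plus strand): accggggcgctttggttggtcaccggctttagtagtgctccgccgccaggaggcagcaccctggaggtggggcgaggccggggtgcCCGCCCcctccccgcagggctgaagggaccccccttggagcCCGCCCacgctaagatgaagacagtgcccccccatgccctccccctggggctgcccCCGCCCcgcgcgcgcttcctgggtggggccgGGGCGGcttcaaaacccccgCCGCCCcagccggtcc
Tgfb2 (chr1:186705990-186706239, minus strand): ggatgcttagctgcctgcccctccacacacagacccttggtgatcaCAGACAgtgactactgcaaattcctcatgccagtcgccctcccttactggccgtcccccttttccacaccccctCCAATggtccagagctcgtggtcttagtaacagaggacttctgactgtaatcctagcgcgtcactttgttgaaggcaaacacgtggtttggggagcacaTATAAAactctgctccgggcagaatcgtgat
Tgfbr1 (chr4:47352972-47353221, plus strand): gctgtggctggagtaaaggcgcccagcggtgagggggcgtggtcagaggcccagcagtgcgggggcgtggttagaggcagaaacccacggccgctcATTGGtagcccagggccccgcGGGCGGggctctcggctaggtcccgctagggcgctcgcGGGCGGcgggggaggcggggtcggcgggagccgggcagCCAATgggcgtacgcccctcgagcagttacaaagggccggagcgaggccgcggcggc

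The GC content was 59.6% for Plaur, 75.2% for Tgfb1, 53.6% for Tgfb2 and 74.8% for Tgfbr1, beside a median of 52.4% over 32851 windows of this length. AP-1 matched in the Plaur window alone, with its first base 69 bases before the start, and in 6.75% of all windows. The 3 GC box matches of Plaur run into one another, Tgfb1 held 5 and Tgfbr1 2, and 32.7% of all windows held at least 1. The Tgfb2 window held the sole TATA box of the 4, 31 bases before the start (12.4% of all windows), a SMAD element 204 bases before it (17.1%) and a CCAAT box. Tgfbr1 held 2 CCAAT boxes (33.8% of all windows). The cAMP response element (1.55% of all windows), the CHOP-ATF4 element (3.45%) and a palindromic SMAD box, GTCTAGAC (0.167%), had no match in these 4 windows.

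Compared per transcript length, in transcripts per 1000000 (TPM), the 8 genes were expressed at low to middling levels. Tgfb1 was the highest at 8.23 ± 1.19 TPM (SD, n = 4 libraries), above 63.5% of the tested genes. Plau followed at 4.51 ± 1.79 TPM and Thbs1 at 3.07 ± 2.78. Tgfbr1 had 2.48 ± 0.473 TPM, Plat 2.28 ± 0.292, Plaur 2.14 ± 0.545 and Tgfb3 1.54 ± 0.209. Tgfb2 was the lowest at 0.316 ± 0.134 TPM, above 9.9% of the tested genes. The ranges of neighbours in this order overlapped except between Tgfb3 (1.33 to 1.81 TPM) and Tgfb2 (0.137 to 0.457). Among the ligands, then, Tgfb1, Tgfb3 and Tgfb2 had ranges that did not overlap (6.70 to 9.53 TPM for Tgfb1).

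**Figure D1:**
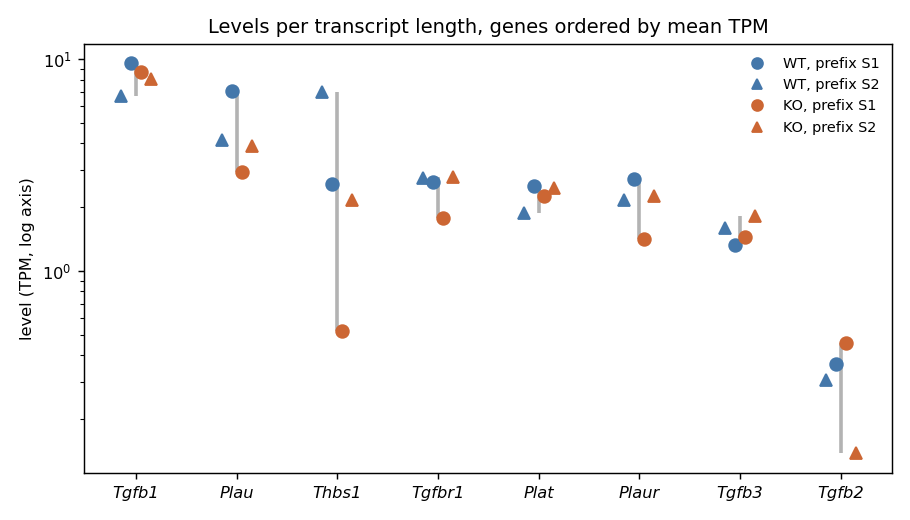
Level of each gene in TPM on a log axis, 1 point per library (colour for genotype, shape for prefix), with a grey bar from the lowest to the highest library and genes ordered by mean. Thbs1 has the longest bar, from 0.521 to 7.03 TPM, and the Tgfb2 bar lies apart at the bottom.

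Most of the signal of each gene came from 1 protein-coding transcript. Plau-201 and Tgfb3-201 held all of their genes' TPM in every library. Plat-201 held 90.2 to 97.7%, Tgfbr1-201 86.7 to 97.4% and Tgfb1-201 72.7 to 89.7%. Plaur-201 held the lowest share, 59.0 to 76.4%, the rest being split over 4 transcripts with a retained intron or a premature stop. Thbs1-201 (22 exons, 5848 bases) was the only Thbs1 transcript above 0 in KO, while in WT 1 and WT 2 a second, intron-retaining transcript held 19.2 and 7.74 estimated counts. Kallisto splits reads between such transcripts by estimation, so these shares are less certain than the gene sums.

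**Figure D2:**
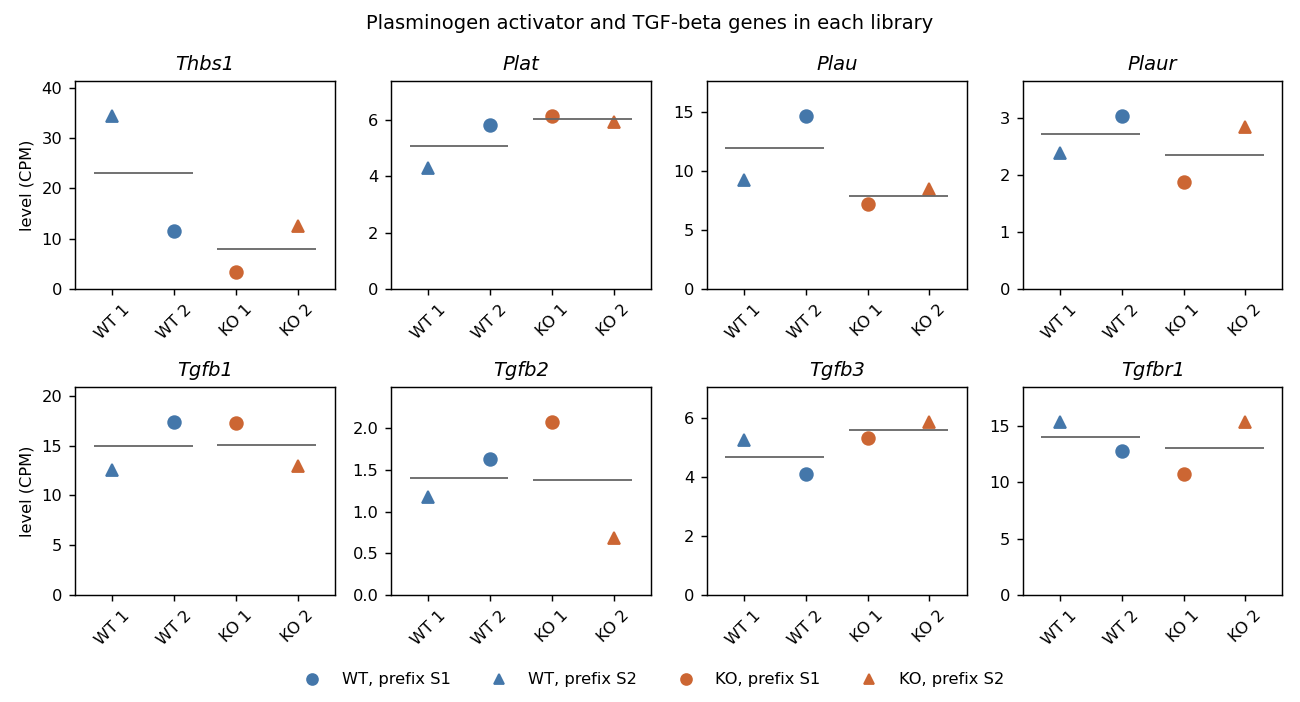
Level of each gene in CPM in the 4 libraries, with a line at the mean of each genotype, colour for genotype and shape for prefix; each panel starts at 0 and has its own scale. Thbs1 runs from 3.40 to 34.4 CPM, and only Plat, Plau and Tgfb3 have genotypes that do not overlap.

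All differences in the genotype and prefix contrasts of the 8 genes are descriptions, since these contrasts chose them, and no test of them is given. The genotypes did not overlap in CPM for 3 of the 8 (Plat, Plau, Tgfb3), beside 26.3% of all tested genes, and only Plau had both KO libraries lowest, beside 13.1%. The prefixes did not overlap for 4 (Thbs1, Tgfb1, Tgfb2, Tgfbr1), beside 53.2% of all tested genes. The median log2 fold change of the 8, KO over WT, was -0.08, beside 0.00 over all tested genes. For S2 over S1 it was -0.07, beside -0.01.

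Thbs1 (ENSMUSG00000040152, chromosome 2, 118111876 to 118127133, plus strand, GRCm38) varied most. It was at 34.4 CPM in WT 1 and 11.6 in WT 2, beside 3.40 in KO 1 and 12.4 in KO 2. The library labelled WT 1 was highest and KO 1 lowest, and WT 2 and KO 2 were nearly level, so the genotypes overlapped. The highest library was 10.1-fold above the lowest, a ratio reached by 2.29% of the tested genes. The level was lower in KO within both prefixes, with a log2 difference of -1.75 within S1 and -1.46 within S2, and higher in S2 within both genotypes, with 1.56 in WT and 1.85 in KO. The WT mean was 23.0 ± 16.1 CPM and the KO mean 7.92 ± 6.39 (SD, n = 2 each). The fitted log2 fold change, KO over WT, was -1.53 (SE 0.72), and -1.60 (SE 0.17) once the prefix was a block. The blocked fit leaves 1 residual degree of freedom, so its smaller SE rests largely on variation pooled across other genes. In the fit without the block, dropping the library labelled WT 1 gave -0.55, dropping KO 1 gave -0.88, dropping WT 2 gave -2.11 and dropping KO 2 gave -2.76. In a bulk tissue sample, fewer cells of a type and less RNA per cell cannot be told apart.

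Markers of other cells and early response genes were set beside Thbs1. The 7 macrophage markers summed to 339 CPM in WT 1 and 228 in WT 2, beside 90.7 in KO 1 and 266 in KO 2. All 7 were lowest in KO 1, 6 were highest in WT 1, and 5 had the same order of the 4 libraries as Thbs1, an order that 9.45% of the tested genes had. The shares of all genes lowest in KO 1 or highest in WT 1 were not counted. The 12 early response genes, rapid transcriptional responders to stimuli such as stress and handling, summed to 821 CPM in WT 1 and 378 in WT 2, beside 158 in KO 1 and 220 in KO 2. Of them, 11 were lower in both KO than in both WT libraries, beside 13.1% of all tested genes. The other 1 was higher in both KO libraries. Genes whose genotypes do not overlap cannot have both S2 libraries above both S1 libraries, nor the order of Thbs1. For S2 over S1, 12 of 12 log2 fold changes were positive (median 0.72), beside 7579 of all 15643 genes tested (median -0.01). With genotype as a second term 10 were positive and 2 negative. In that fit edgeR called 6 higher and 0 lower in S2, beside 1.59% and 1.55% of all genes. Platelets store thrombospondin-1. Their 5 markers, of which 4 passed the count filter, had sums of 8.25, 10.3, 7.97 and 6.48 CPM in WT 1, WT 2, KO 1 and KO 2. The part of macrophages, of platelets and of the early response in the Thbs1 values was not tested. By distance between centred log2 CPM profiles over the 4 libraries, among 10895 genes, the genes nearest to Thbs1 were Mest (0.63), Atf3 (0.63) and Dnajb1 (0.65).

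**Figure D3:**
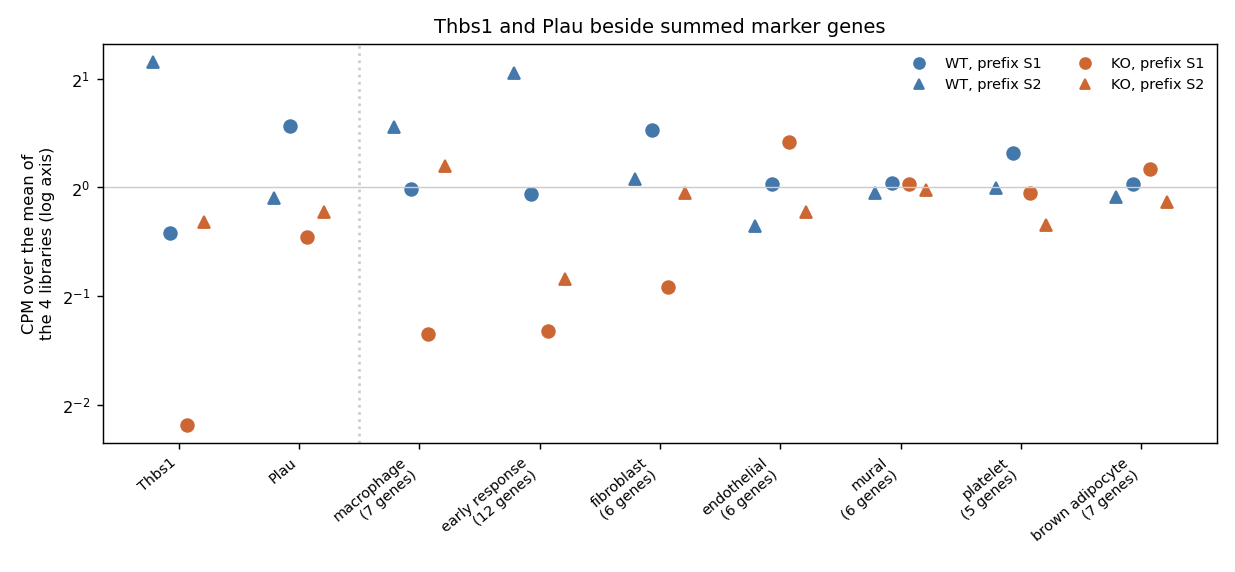
Level in each library over the mean of the 4 libraries, on a log axis, for Thbs1 and Plau (left of the dotted line) and for summed CPM of marker lists (right), with colour for genotype and shape for prefix. KO 1 is lowest for Thbs1, Plau, macrophage, early response and fibroblast genes, and the mural and brown adipocyte sums vary little.

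Of the activators, Plau and Plat differed in opposite directions. Plau (ENSMUSG00000021822, chromosome 14, 20836660 to 20843385, plus strand), urokinase, was at 9.24 CPM in WT 1 and 14.6 in WT 2, beside 7.23 in KO 1 and 8.47 in KO 2. The KO libraries were the lowest, and WT 2 stood above all others. The log2 fold change was -0.61 (SE 0.27), with -1.01 within S1 and -0.13 within S2, and -0.24 without WT 2. The summed level of the 6 fibroblast markers had the same order (WT 1 at 424 CPM, WT 2 at 578, KO 1 at 212, KO 2 at 387), but most of it was Col3a1 (321, 481, 161 and 305 CPM). Singly, Col3a1 and Pdgfra had that order and Dpt, Lum, Dpp4 and Pi16 did not. All 6 were lowest in KO 1, and 3 were lower in both KO than in both WT libraries (13.1% of all tested genes), while Pi16 was highest in KO 2. The share of all genes lowest in KO 1 was not counted. The part of the fibroblast markers in the Plau values was not tested. The profile of Plau was nearest to Tmem119 (0.02), Dcun1d3 (0.07) and Capg (0.09).

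Plat (ENSMUSG00000031538, chromosome 8, 22757727 to 22782844, plus strand), the tissue-type activator, was at 4.30 CPM in WT 1 and 5.80 in WT 2, beside 6.14 in KO 1 and 5.93 in KO 2. Only WT 1 lay away from the rest, and both KO libraries were above both WT libraries by a small margin. The log2 fold change was 0.25 (SE 0.24), with 0.08 within S1 and 0.46 within S2, and 0.06 without the library labelled WT 1. Its nearest profiles were those of Iqsec3 (0.04), Git1 (0.04) and Cdh23 (0.05).

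Plaur (ENSMUSG00000046223, chromosome 7, 24462484 to 24475968, plus strand), the urokinase receptor, was at 2.39 CPM in WT 1 and 3.05 in WT 2, beside 1.88 in KO 1 and 2.85 in KO 2, from 48 to 112 counts. Genotypes and prefixes overlapped, and KO 1 was the lowest. The difference between KO and WT was -0.68 within S1 and 0.25 within S2, so it took opposite signs, and the fitted log2 fold change was -0.20 (SE 0.34). Ttll3, Dbn1 and Sirpa were nearest in profile (0.10, 0.11 and 0.11).

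The ligand Tgfb1 split by prefix and not by genotype. Tgfb1 (ENSMUSG00000002603, chromosome 7, 25687002 to 25705077, plus strand) was at 12.6 CPM in WT 1 and 17.4 in WT 2, beside 17.2 in KO 1 and 12.9 in KO 2. The libraries of S1 were level with each other and above those of S2, which were also level with each other. The S2 to S1 difference was -0.47 in WT and -0.41 in KO, with a fitted log2 fold change of -0.44 (SE 0.12), and that of KO over WT was 0.01 (SE 0.24), with -0.01 within S1 and 0.04 within S2. On TPM the S2 libraries held 6.70 and 8.06 and the S1 libraries 9.53 and 8.64, and the prefix difference on the log2(TPM + 1) scale was -0.27. Bicra (0.03), Pld2 (0.04) and Lamb1 (0.04) had the nearest profiles. The 6 endothelial markers summed to 830 and 1089 CPM in the S1 libraries and 635 and 695 in S2. Of these, 5 were lower and Cldn5 was higher in both S2 libraries, while the prefixes did not overlap for 53.2% of all tested genes. The part of the endothelial markers in the Tgfb1 values was not tested.

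Tgfb2 (ENSMUSG00000039239, chromosome 1, 186622792 to 186705989, minus strand) had 20 to 60 counts per library. It was at 1.18 CPM in WT 1 and 1.63 in WT 2, beside 2.07 in KO 1 and 0.686 in KO 2, with both S1 libraries above both S2 libraries. The S2 over S1 log2 fold change was -0.98 (SE 0.39), with -0.45 in WT and -1.51 in KO. The genotype difference was 0.33 within S1 and -0.73 within S2, again of opposite sign, with a fitted value of -0.04 (SE 0.57) that went from -1.04 without KO 1 to 0.55 without KO 2. Zfp810 (0.13), Ptpn18 (0.14) and Ankrd9 (0.14) were the genes nearest to it.

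Tgfb3 (ENSMUSG00000021253, chromosome 12, 86056745 to 86079041, minus strand) was at 5.26 CPM in WT 1 and 4.08 in WT 2, beside 5.31 in KO 1 and 5.86 in KO 2. Both KO libraries were above both WT libraries, although KO 1 and WT 1 differed by little. The log2 fold change was 0.26 (SE 0.24), with 0.37 within S1 and 0.16 within S2. Spa17 (0.04), Xrcc1 (0.05) and Retreg1 (0.06) lay nearest.

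The receptor kinase Tgfbr1 (ENSMUSG00000007613, chromosome 4, 47353222 to 47414931, plus strand) was at 15.4 CPM in WT 1 and 12.8 in WT 2, beside 10.7 in KO 1 and 15.3 in KO 2. The S2 libraries were level with each other and above both S1 libraries, the reverse of Tgfb1. The S2 over S1 log2 fold change was 0.38 (SE 0.14), with 0.27 in WT and 0.51 in KO, and KO over WT was -0.11 (SE 0.23), with -0.25 within S1 and 0.00 within S2. The order of the 4 libraries was that of Thbs1, over a ratio of 1.43 and not 10.1. Galnt1 (0.01), Stag2 (0.02) and Itch (0.02) were nearest in profile.

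**Figure D4:**
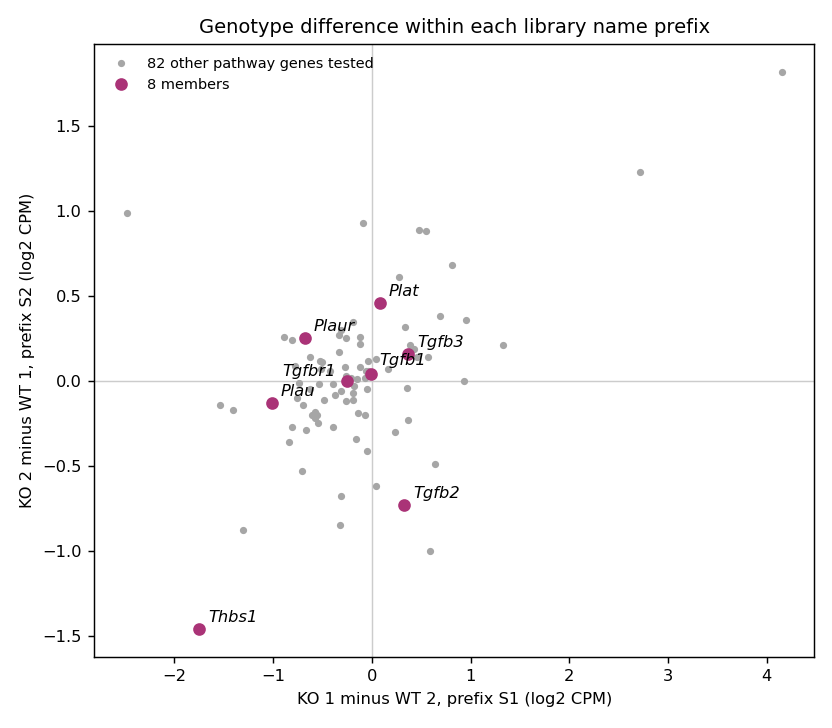
Difference between KO and WT in log2 CPM (prior count 2) within prefix S1 (x axis) and within S2 (y axis), for the 8 members (large points) and 82 other tested genes of the pathway (small points). Thbs1 lies at -1.75 and -1.46, while the other 7 members lie within 1.01 of 0 on both axes.

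Around the 8 genes, 95 others of the pathway were listed by role in 8 lists, and 82 of them were tested. With edgeR's quasi-likelihood test, 0 of 82 passed for KO against WT at an adjusted p of 0.05, beside 0.78% of all genes tested (0.767% higher and 0.0128% lower in KO). An unadjusted p under 0.05 was found for 5, beside 4.02% of all genes. DESeq2 called 0, beside 218 of all genes, and limma on log2(TPM + 1) called 0, beside 124. With the prefix as a block 0 passed, beside 2.05% of all genes (1.57% higher and 0.473% lower). Before adjustment 16 were under 0.05, beside 8.88%. The blocked fit leaves 1 residual degree of freedom, so its error rests largely on variation pooled across genes. The median log2 fold change of the 82 without a block was -0.11, with 55 negative and 27 positive. Over all 15643 genes tested the median was 0.00, with 7767 negative and 7876 positive.

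Of the 14 listed genes of the plasminogen system 10 were tested, and 0 passed in either fit. Serpine2, an inhibitor of the activators, was lower in the KO libraries (13.3 and 15.7 CPM) than in the WT libraries (18.9 and 23.4). Blocked on the prefix, its log2 fold change was -0.54 (SE 0.17), short of the threshold (edgeR adjusted p = 0.243). Plg, which encodes plasminogen itself, and the inhibitors Serpinb2 and Serpinf2 were too low to test, at 0 to 0.159 CPM. Among thrombospondins, Thbs2 had 3.13 and 4.94 CPM in the KO libraries and 5.58 and 8.36 in the WT libraries (log2 fold change -0.79, SE 0.29, edgeR adjusted p = 0.379 with the block). Thbs4 had 0.899 and 0.686 CPM in the KO libraries and 0.255 and 0.0817 in the WT libraries, from 3 to 23 counts (edgeR adjusted p = 0.152 with the block). Of the 5 thrombospondin family and receptor genes tested, 0 passed in either fit. Without the block, the edgeR adjusted p was 0.9998 for Serpine2 and for Thbs2, and 0.711 for Thbs4.

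Among the 15 tested genes of latency and activation, 0 passed for KO against WT in either fit. Itgb6, the beta chain of an integrin that frees TGF-beta, had 28 and 18 counts in the KO libraries and 4 and 0 in the WT libraries (edgeR adjusted p = 0.587, and 0.0708 with the block). Of the 12 receptors 0 passed in either fit, with 4 positive and 8 negative log2 fold changes. With the block the smallest p belonged to the co-receptor Eng, which had 82.7 CPM in WT 1 and 180 in WT 2, beside 265 in KO 1 and 152 in KO 2. Its genotypes overlapped, and its log2 fold change was 0.72 (SE 0.17, edgeR adjusted p = 0.0683 with the block), with 0.55 within S1 and 0.88 within S2. Acvrl1, the endothelial receptor kinase that Eng assists, had the same sign (0.44, SE 0.16, edgeR adjusted p = 0.33 with the block). Tgfbr2, the partner of Tgfbr1, had 80.1 and 93.0 CPM in the KO libraries and 111 and 117 in the WT libraries (log2 fold change -0.40, SE 0.16, edgeR adjusted p = 0.434 with the block). Tgfbr3, the co-receptor that presents TGF-beta2, had 66.9 and 51.6 CPM in the KO libraries and 82.5 and 82.7 in the WT libraries (log2 fold change -0.49, SE 0.16, edgeR adjusted p = 0.264 with the block). For Tgfbr2 and Tgfbr3 both KO libraries lay below both WT libraries, as for 13.1% of all tested genes. Without the block, the edgeR adjusted p was 0.9998 for each of Eng, Acvrl1, Tgfbr2 and Tgfbr3.

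Of the 16 SMAD and regulator genes 0 passed for genotype in either fit. Skil, a repressor of SMADs, had 56.6 CPM in WT 1 and 29.1 in WT 2, beside 23.3 in KO 1 and 31.4 in KO 2, so WT 1 stood alone. Its log2 fold change was -0.65 (SE 0.35), and -0.09 when WT 1 was dropped. Of 14 target genes 0 passed for genotype in either fit. Col1a1, a fibrillar collagen chain, had 170 CPM in WT 2 and 85.1 in WT 1, beside 77.5 in KO 2 and 58.2 in KO 1, and its genotype difference was -1.54 in S1 and -0.14 in S2. Acta2, smooth muscle actin, had the opposite sign, with 51.8 and 32.0 CPM in the KO libraries and 24.8 and 26.8 in the WT libraries (log2 fold change 0.66, SE 0.17, edgeR adjusted p = 0.124 with the block). Of 7 tested further ligands and 6 tested antagonists 0 passed in either fit. Inhbb, an activin subunit made in adipocytes, had 1.64 and 3.98 CPM in the KO libraries and 7.39 and 4.14 in the WT libraries (edgeR adjusted p = 0.0714 with the block). Without the block, the edgeR adjusted p was 0.9998 for Inhbb and for Acta2.

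Between the prefixes, edgeR with the prefix as the sole term called 0 of the 82 genes, beside 0.00639% of all genes tested. An unadjusted p under 0.05 was found for 20, beside 15.5%. DESeq2 called 4 of the 82 (Anxa2, Ccn2, Lox, Ltbp4), beside 548 of all 15643 genes tested. With genotype as a second term 5 passed, 2 higher and 3 lower in S2, beside 3.14% of all genes (1.59% higher and 1.55% lower). Of the 82, 27 were under 0.05 before adjustment, beside 19.8%. This fit also leaves 1 residual degree of freedom, and the same 5 genes had edgeR adjusted p of 0.277 to 0.318 with the prefix as the sole term. Ltbp4, a latent TGF-beta binding protein, was at 154 and 229 CPM in the S1 libraries WT 2 and KO 1 and at 93.5 and 103 in the S2 libraries WT 1 and KO 2. Its S2 over S1 log2 fold change in the fit with genotype was -0.93 (SE 0.17, edgeR adjusted p = 0.019). Eng, the endothelial co-receptor endoglin, was at 180 and 265 CPM in S1 and 82.7 and 152 in S2, with -0.96 in that fit (SE 0.17, edgeR adjusted p = 0.0167). Smad9, a SMAD of the bone morphogenetic protein branch, was at 1.69 and 3.01 CPM in S1 and 0.510 and 0.857 in S2, with -1.77 (SE 0.36, edgeR adjusted p = 0.0315).

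The other two called genes were targets and were higher in S2. Ccn2, a matricellular protein, was at 2.78 and 3.28 CPM in S1 and 7.39 and 5.998 in S2 (log2 fold change 1.15, SE 0.25, edgeR adjusted p = 0.0372). Lox, which cross-links collagen, was at 23.6 and 13.4 CPM in S1 and 37.3 and 44.0 in S2, with 1.17 (SE 0.22, edgeR adjusted p = 0.0241). Of the 16 SMADs and regulators 12 had a positive S2 over S1 log2 fold change, beside 7579 of all 15643 genes tested. Their median was 0.30 beside -0.01 over all genes. Smad1, for one, was at 7.95 and 7.58 CPM in S1 and 11.3 and 11.4 in S2, and did not pass (log2 fold change 0.55, SE 0.17, edgeR adjusted p = 0.119). Anxa2, a surface receptor of plasminogen and Plat, was at 315 and 223 CPM in S1 and 430 and 465 in S2 (edgeR adjusted p = 0.0851). Like Eng, 5 of the 6 endothelial markers were higher in both S1 libraries, while Cldn5, a tight junction protein of endothelium, was lower there (14.5 and 27.9 CPM in S1, 72.4 and 68.4 in S2). A split by prefix was common, since the prefixes did not overlap for 53.2% of all tested genes. The part of the endothelial markers in the Eng values was not tested.

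**Figure D5:**
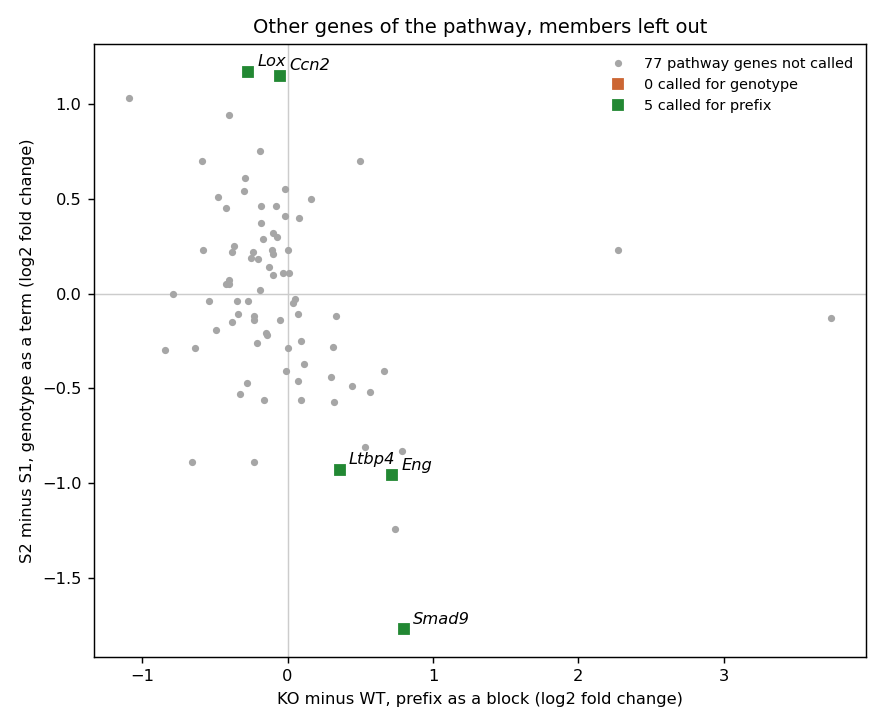
Log2 fold change of KO over WT with the prefix as a block (x axis) against that of S2 over S1 with genotype as a term (y axis), for the 82 tested pathway genes without the 8 members. Squares are the 5 genes past an adjusted p of 0.05 for prefix (Lox, Ccn2, Ltbp4, Eng and Smad9), and none passed for genotype in that fit.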

How the data were processed

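Estimated counts and TPM (transcripts per 1000000) per transcript were deposited by the authors for each of the 4 libraries, per the file headers. Per the labels' protocols, TRIzol and RNeasy columns were used for the RNA and a stranded TruSeq mRNA kit for the libraries. Per the submitters' processing notes, kallisto 0.45.0 and build mm10 were used. The sources used here name neither the transcript set nor the strand setting. Opposite-strand genes in the files that overlap exons of Thbs1, Tgfb2 or Tgfb3 had 4 counts or fewer per library.

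Transcripts were assigned to GENCODE vM21 genes (97.7% matched, the rest holding 0.992 to 1.045% of counts and left out). Both values were added up over the transcripts of a gene, and the estimated counts then rounded. Total estimated counts were 32714456 and 34813870 in WT and 25985367 and 30405113 in KO.

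The test was edgeR 4.0.16 (quasi-likelihood, TMM, filterByExpr with minimum count 10 and minimum total 15) in R 4.3.3 over 15643 genes, with genotype or prefix as the sole term and Benjamini-Hochberg adjustment at 0.05. CPM used TMM-scaled library sizes, and differences within a prefix or genotype are log2 CPM with a prior count of 2. The SE is the absolute log2 fold change over the square root of F. On simulated counts, the genotype fit recovered 56% of 50 genes changed by a log2 fold change of 1, and 90% at 2. It also called 7 unchanged genes. The simulated spread came from a model of genotype and prefix together, with no prefix effect added. Recovery in the real libraries may therefore be lower, so a count of 0 passed does not show that no gene differed. The labels do not say that libraries come from separate animals, so p-values cover only the spread among these libraries, which may be technical. Alternatives were both terms together, the replicate number as a block, DESeq2 1.42.0 (test or size factors), limma 3.58.1 on log2(TPM + 1), filtering not at all or at 1 CPM in at least 2 libraries, a threshold of 0.1 and leaving out each library.

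The members and lists were chosen with earlier results of these data known. A gene of the pathway is not reported here and was left out of the lists and their counts. Named were the 8 members, up to 4 genes per list with the smallest p in each comparison, the 3 genes nearest to each member in centred log2 CPM (mean log2 CPM of at least 1), and Atf4. Acvrl1, the single marker genes, Plg, Serpinb2 and Serpinf2 were named after their values were seen.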

Additional observations from a re-analysis of the deposited data

Results flagged for a closer look

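Plaur, Tgfb2 and Tgfb1 had differences between KO and WT of opposite sign in the 2 prefixes, each with 1 library per genotype, so the difference between the prefixes was not tested. For Plaur the log2 difference was -0.68 within S1 and 0.25 within S2. For Tgfb2, with 20 to 60 counts per library, it was 0.33 within S1 and -0.73 within S2. For Tgfb1 it was -0.01 within S1 and 0.04 within S2, both close to 0.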

How the results depend on the processing

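The number of genes called for KO against WT (122) was 457 without a filter, 218 with DESeq2, 320 with the prefix as a block and 78 to 205 with 1 library left out. With the replicate block it was 164. For S2 against S1 (1 gene) it was 823 without a filter, 548 with DESeq2, 491 with genotype as a second term, 2 at a threshold of 0.1 and 0 to 1 with 1 library left out. Among pathway genes, the count for KO against WT (0) was 4 without a filter (Col1a1, Itgb6, Tagln, Thbs4), 0 with DESeq2, with the replicate block and with the prefix as a block, and 0 to 1 with 1 library left out (Itgb6, without WT 1). For S2 against S1 (0) it was 8 without a filter, 4 with DESeq2, 5 with genotype as a second term and 0 with any 1 library left out. The cause of these moves was not tested. Of 88 member values for KO over WT under the alternatives, 4 moved by more than the spread between libraries and 7 changed sign (Plaur, Tgfb1, Tgfb2, Tgfbr1). Of 80 for S2 over S1, 10 moved and 3 changed sign (Plau, Plaur). Same-numbered libraries deviated in opposite directions (correlation -0.382 over genes), and the crossed pairing is the prefix. Counts of 20 to 112 per library limit Tgfb2 and Plaur.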
